A study of Mus musculus with 30 samples.

Results

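The genes described here are 35 genes of the cell cycle and mitosis, a list of proliferation genes whose symbols were looked up among the 36558 gene IDs of a mouse RNA-seq count table. No cut on measured values entered the rule, and all 35 were found. They comprise 10 genes of DNA replication and nucleotide supply, 5 mitotic cyclins and their partners, and 5 genes of the spindle checkpoint and of anaphase promotion. The rest are 5 genes of mitotic kinases and the passenger complex, 8 genes of the spindle, kinetochore and cytokinesis, and 2 genes of chromosome structure. The libraries hold bulk RNA of heart or of white adipose tissue, and the mice were C57BL/6J males aged 15 weeks. Every mouse ate a high-fat diet (HFD) with l-NAME, which blocks nitric oxide synthase, during the last 7 weeks. The mice had received an adeno-associated virus of serotype 8 (AAV8) that carried either green fluorescent protein (AAV8-GFP) or F11, the gene of coagulation factor XI (AAV8-F11). There were 8 adipose libraries with each vector, 7 heart libraries with F11 and 6 heart libraries with GFP. The promoter in the vectors and its dose are not given in the labels, and neither untreated mice nor mice on standard chow were among the groups.

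Cells that divide copy their DNA in S phase and separate the copies in mitosis. Genes of replication, such as those of the MCM helicase, are switched on by E2F factors as cells enter S phase, while genes of mitosis are switched on later by the MuvB complex with MYB and FOXM1, which acts through a promoter element called the cell cycle genes homology region (CHR) beside CCAAT boxes. RNA of these genes is scarce in tissues of resting cells. In obese fat the dividing cells include macrophages, progenitors and other stromal cells, whereas the cardiomyocytes of adult mice rarely divide. Gpnmb, a glycoprotein gene, is a marker of lipid-associated macrophages in fat.

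In units of 1e6, totals of estimated counts per library ran from 25.75 to 33.02 in heart and from 15.95 to 26.33 in fat. Defining markers stood in the labelled tissues: summed counts per 1e6 counts (CPM) of 6 cardiomyocyte genes were 49270 to 66370 in heart, and those of 8 adipocyte genes were 10740 to 18910 in fat against 850.7 to 1253 in heart. F11 RNA was at 0.388 to 11.96 CPM in adipose libraries with the F11 vector and 0 to 3.50 CPM in those with GFP, so the groups overlapped, and it did not exceed 0.501 CPM in any heart library. In 6 of the 16 adipose libraries the marker genes of another organ summed to over 500 CPM. Hepatocyte genes did so in L136 and L137 with GFP and in L145 and L146 with F11, epididymis genes in L142 with F11, and cardiomyocyte genes in L140 with GFP, at 5048 CPM. L140 also had the highest share of mitochondrial transcripts among adipose libraries, 11.1% against 3.89% to 6.71% in the others. The tissue difference, the relations to Mki67, Gpnmb and the macrophage markers, the pairwise r and the vector comparison in fat are therefore also given without these 6 libraries. The labels do not say whether libraries of a group came from separate mice, and p-values then cover only the spread among libraries, which may be technical. In bulk tissue, fewer dividing cells and less RNA in each cannot be told apart.

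The promoters of 6 genes that varied together in fat are shown, with matches to the letters of elements known from cell cycle promoters. Each runs from 250 bases before to 50 after the RefSeq start, 5′ to 3′, from GRCm38.p6. All 6 genes lie on the minus strand: Mki67 at chr7:135716330-135716629, Cdk1 at chr10:69352863-69353162, Ccnb2 at chr9:70421505-70421804, Cdc20 at chr4:118437294-118437593, Mcm6 at chr1:128359656-128359955 and Pcna at chr2:132253131-132253430. Capitals mark the CHR as TTTGAA or TTTAAA, the CCAAT box as CCAAT, and an E2F site by any of 4 forms, which are first TTCCCGC, next TTCGCGC, then TTGCCGC and last TTGGCGC, on either strand. Where 2 E2F matches overlap, as in Mcm6, they form 1 run of capitals.
Mki67: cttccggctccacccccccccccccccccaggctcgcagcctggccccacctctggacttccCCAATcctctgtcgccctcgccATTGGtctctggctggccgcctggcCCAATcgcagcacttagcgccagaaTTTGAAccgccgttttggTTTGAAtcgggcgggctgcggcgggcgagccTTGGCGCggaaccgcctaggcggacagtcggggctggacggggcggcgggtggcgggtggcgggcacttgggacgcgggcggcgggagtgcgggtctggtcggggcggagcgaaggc
Cdk1: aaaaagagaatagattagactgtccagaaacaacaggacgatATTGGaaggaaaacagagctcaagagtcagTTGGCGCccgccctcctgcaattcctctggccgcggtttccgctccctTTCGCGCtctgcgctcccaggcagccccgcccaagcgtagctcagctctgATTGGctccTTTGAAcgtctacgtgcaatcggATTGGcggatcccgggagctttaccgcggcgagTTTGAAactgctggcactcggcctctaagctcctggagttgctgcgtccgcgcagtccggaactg
Ccnb2: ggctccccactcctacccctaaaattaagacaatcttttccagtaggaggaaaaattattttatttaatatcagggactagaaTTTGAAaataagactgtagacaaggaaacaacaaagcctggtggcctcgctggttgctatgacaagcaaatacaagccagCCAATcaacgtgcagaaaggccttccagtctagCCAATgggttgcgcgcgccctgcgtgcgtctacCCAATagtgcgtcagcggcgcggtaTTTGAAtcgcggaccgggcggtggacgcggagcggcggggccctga
Cdc20: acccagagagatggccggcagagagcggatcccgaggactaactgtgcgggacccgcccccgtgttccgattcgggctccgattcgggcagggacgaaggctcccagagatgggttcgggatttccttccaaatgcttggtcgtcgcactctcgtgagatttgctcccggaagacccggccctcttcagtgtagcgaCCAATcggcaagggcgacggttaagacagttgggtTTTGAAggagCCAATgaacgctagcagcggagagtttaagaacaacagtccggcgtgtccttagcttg
Mcm6: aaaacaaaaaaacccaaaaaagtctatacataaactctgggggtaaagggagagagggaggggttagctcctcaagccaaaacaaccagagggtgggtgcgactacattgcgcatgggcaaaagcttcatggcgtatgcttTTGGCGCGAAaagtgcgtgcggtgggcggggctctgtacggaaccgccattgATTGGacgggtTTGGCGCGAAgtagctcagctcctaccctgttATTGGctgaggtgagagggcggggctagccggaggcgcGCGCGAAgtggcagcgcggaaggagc
Pcna: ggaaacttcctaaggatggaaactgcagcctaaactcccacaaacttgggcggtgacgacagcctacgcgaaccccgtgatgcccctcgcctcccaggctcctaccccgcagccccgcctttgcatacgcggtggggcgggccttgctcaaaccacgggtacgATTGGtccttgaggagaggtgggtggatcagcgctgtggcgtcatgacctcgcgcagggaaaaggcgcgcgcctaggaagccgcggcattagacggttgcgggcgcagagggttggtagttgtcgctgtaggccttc

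RefSeq sequences were found for 28 of the 35 genes and for 27025 genes in all, and matches are counted without a test. TTTGAA was in 15 of the 28 promoters (53.6%, against 20.2% of all promoters), and TTTAAA was in 9 (32.1% against 14.9%). CCAAT was in 23 (82.1% against 41.1%), and 1 of the 4 E2F forms was in 7 (25% against 10.9%). In the Cdk1 window TTTGAA lay 71 and 15 bases before the start, and in Cdc20 it lay 18 bases before. By role, the counts were as follows. Of the 8 replication promoters, TTTGAA was in 1 (Mcm2) and an E2F form was in 4 (Mcm3, Mcm5, Mcm6 and Rrm2). Of the 5 checkpoint promoters, TTTGAA was in 4 (Bub1b, Cdc20, Ttk and Ube2c) and an E2F form was in 0. Of the 3 mitotic cyclin promoters, TTTGAA was in 2 and an E2F form in 2 (Ccnb1 and Cdk1). In the mitotic kinase group these were 2 and 0 of 4, and in the spindle group 4 and 0 of 6. For chromosome structure they were 2 and 1 (Mki67) of 2. TTTAAA was in 3 replication, 1 cyclin, 3 kinase group, 2 spindle, 0 checkpoint and 0 chromosome structure promoters. A match is a run of letters and not a measured binding site.

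RNA of nearly the whole list was higher in fat than in heart. With the GFP vector, 33 of the 35 genes were higher in adipose libraries and 1, Cenpf, was lower (edgeR quasi-likelihood test, Benjamini-Hochberg adjusted p under 0.05 over all genes). The background was large, since 43.6% of all 15578 genes tested were higher in fat and 37.7% were lower. The median log2 difference, adipose minus heart, was 2.16 over the 35 genes and 0.09 over all genes. Tissue and tissue preparation cannot be told apart here.

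Mki67, the gene of the proliferation antigen Ki-67 that coats mitotic chromosomes (ENSMUSG00000031004, chr7:135689784-135716361), was at 6.72 CPM at the lowest, 30.0 at the median and 71.3 at the highest over the 16 adipose libraries. In the 13 heart libraries it was at 5.44, 6.87 and 11.01 CPM. The tissues overlapped through L140, while every other adipose library lay above every heart library. With GFP its log2 difference was 2.16 ± 0.40 (SE), a 4.47-fold higher level in fat (n = 8 and 6 libraries, edgeR adjusted p = 0.000151). Top2a encodes topoisomerase II alpha, which untangles replicated DNA. It was at 5.44, 20.4 and 48.9 CPM in fat, again with L140 lowest, and at 2.23, 3.47 and 5.6 CPM in heart.

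Cdk1, the kinase that drives entry into mitosis, was at 1.68, 6.50 and 14.6 CPM in fat and at 0.347, 0.756 and 1.36 CPM in heart. Ccnb1, the cyclin B1 that activates it, was at 1.58, 4.62 and 13.3 CPM in fat and at 0.178, 0.535 and 0.821 CPM in heart. Neither gene overlapped between the tissues, and Ccnb1 was 11.1-fold higher in fat with GFP (log2 difference 3.48 ± 0.45, SE, edgeR adjusted p = 4.92e-06). Pcna, the sliding clamp of DNA polymerase, was at 30.6, 55.1 and 106.8 CPM in fat and at 23.2, 26.2 and 29.0 CPM in heart. Mcm6, a subunit of the replicative helicase, was at 9.93, 23.0 and 44.3 CPM in fat and at 6.42, 8.43 and 10.8 CPM in heart. Mcm6 overlapped through L140 and Pcna did not overlap.

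By role, the median log2 difference with GFP was 1.39 over the 10 replication genes, 2.81 over the mitotic cyclins with Cdk1 and Foxm1, and 2.66 over the checkpoint genes. It was 2.49 over the mitotic kinases with Birc5, and 1.92 over the spindle and kinetochore genes. Bub1, a kinase of the spindle checkpoint, differed by 4.15 ± 0.53 (SE), and Melk, a kinase of the same cell cycle programme, by 3.66 ± 0.39. Mcm2, another helicase subunit, did not pass, with a difference of 0.18 ± 0.22 and an edgeR adjusted p of 0.446. Its levels were 4.94, 9.47 and 16.2 CPM in fat and 7.34, 8.21 and 11.3 CPM in heart. In the F11 libraries 33 genes were likewise higher and 1 lower in fat, against 6720 and 6118 of all 15719 genes. Without the libraries rich in transcripts of another organ, 34 were higher and 1 lower, against 6579 and 6349 of all 15713 genes.

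Cenpf went the other way. It encodes a large protein of the kinetochore and nuclear matrix (ENSMUSG00000026605, chr1:189640606-189688086) and was at 22.9, 32.4 and 41.9 CPM in heart against 2.56, 4.29 and 10.1 CPM in fat. Every heart library lay above every adipose library, and the log2 difference with GFP, adipose minus heart, was -2.66 ± 0.25 (SE, edgeR adjusted p = 1.32e-07). Genes were compared roughly per kilobase of the longest annotated protein-coding transcript, whichever transcript was expressed. On that scale mean Cenpf with GFP ranked 2 of 35 in heart, at 2.90 CPM per kb, and 35 of 35 in fat, at 0.462. Pcna ranked 1 on that scale in both tissues, at 17.5 CPM per kb in heart and 38.3 in fat. The annotated span of Cenpf holds a processed pseudogene on the opposite strand that was at a mean of 0 CPM in both tissues. It is 1 of 11 of the 35 genes whose span overlaps another gene, and whether strand was used in counting is not given. Tyms, the thymidylate synthase gene, had the lowest p of the list between tissues: it was at 7.89, 9.74 and 11.7 CPM in fat and at 3.85, 4.65 and 6.16 CPM in heart, with a log2 difference of 1.01 ± 0.08 (SE, edgeR adjusted p = 1.04e-08).

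**Figure D1:**
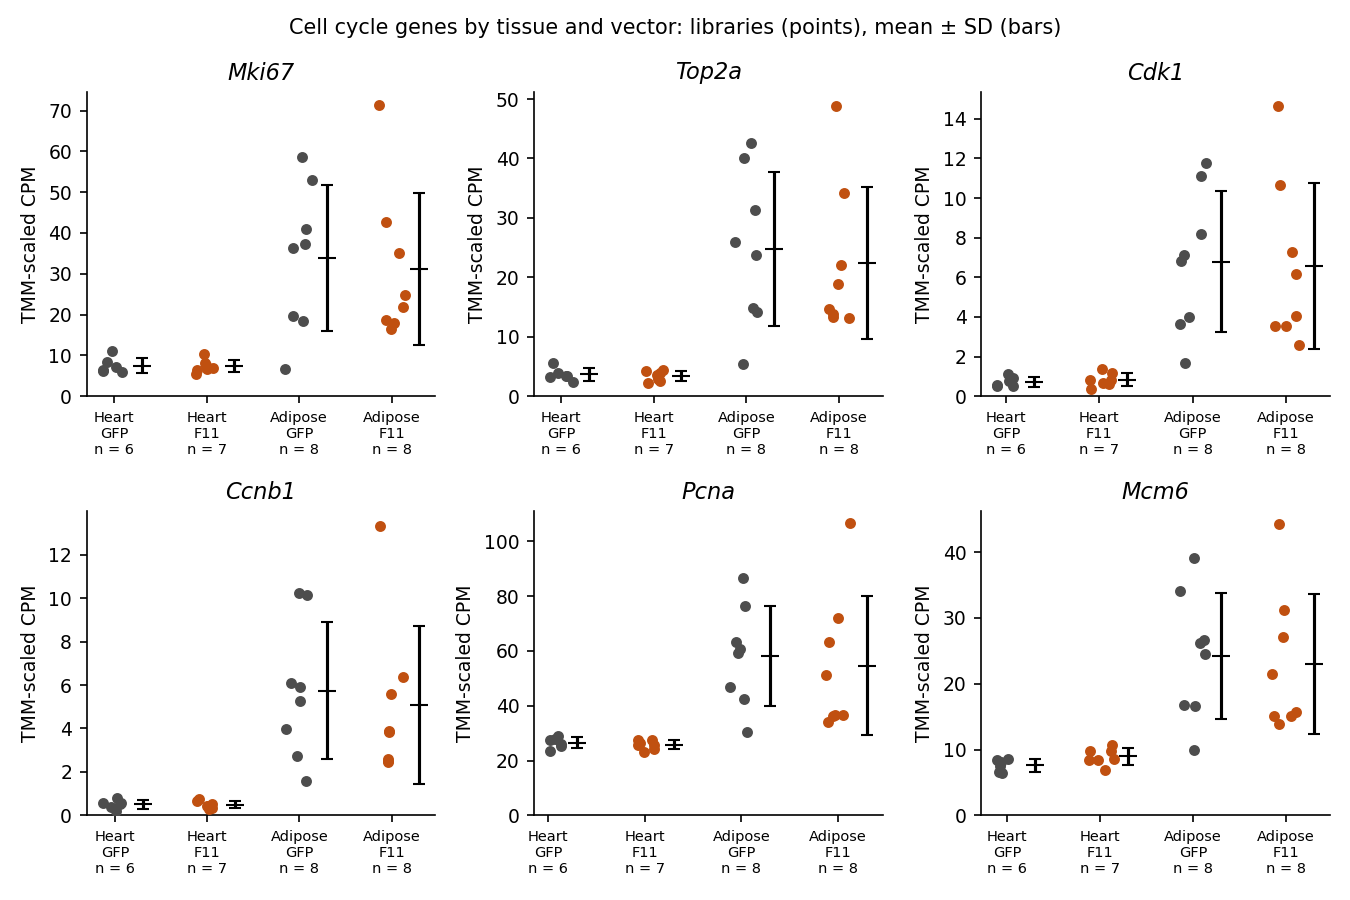
TMM-scaled CPM of 6 cell cycle genes (y axes, each from 0) in every library of the 4 groups, with the mean and SD of each group beside the points. The heart libraries lie close together and the adipose libraries spread widely, Mki67 from 6.72 to 58.7 CPM with GFP and from 16.5 to 71.3 CPM with F11, ranges that overlap.

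The spread within fat was wide and was shared by the genes. Summed over the 35 genes, adipose libraries ran from 140.6 to 568.2 CPM with GFP (mean 359.1 ± 145.5, SD, n = 8) and from 207.9 to 668.8 CPM with F11 (332.7 ± 159.7, SD, n = 8). Heart libraries ran from 133.001 to 152.463 CPM with GFP (mean 138.924 ± 7.463, SD, n = 6) and from 124.625 to 150.775 CPM with F11 (139.005 ± 9.56, SD, n = 7). L148, with F11, was the highest adipose library for 31 of the 35 genes, and L140, with GFP, was the lowest for 30. In heart no library led so often, the most frequent being L9 with GFP, which was highest for 12.

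Over the 16 adipose libraries 33 of the other 34 genes correlated with Mki67 (log2(CPM + 0.5), permutation test with 100000 permutations, adjusted p under 0.05 over all genes). Among all 15228 genes 26.5% did so in the positive direction. The median Pearson r was 0.96 over the 34 genes and -0.01 over all genes. For Top2a, r was 0.99 and rho 0.98, with an adjusted p of 0.000101 that rests on 1e-05, the smallest these permutations can give. For Ccnb1, r was 0.96, and for Pcna it was 0.94. Without the 2 libraries farthest from the median of Mki67, 33 genes still passed, while 3574 of all 15228 genes correlated positively. With GFP alone 34 passed, against 2865 of all genes, and with F11 alone 31, against 2061. Without the libraries rich in transcripts of another organ 33 passed, against 3098 of all genes.

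Weakest in fat were Tyms and Ccne2, the gene of cyclin E2, which opens S phase. For Tyms r was 0.49 (rho 0.57, permutation adjusted p = 0.106), within GFP 0.83 and within F11 0.36, and 0.33 without the 2 farthest libraries. Over the 10 libraries without much RNA of another organ its r was 0.69. Tyms was the 1 gene that did not pass over the 16 libraries. L145, its highest library, was rich in hepatocyte transcripts. Without L145 the lowest r of the list was 0.72 and all 34 passed, against 3839 of all 15228 genes. For Ccne2 r was 0.83 (rho 0.83, permutation adjusted p = 0.000101), and 0.79 without the 2 farthest libraries. Its 16 values ran only from 4.91 to 8.997 CPM.

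In heart 0 of the 30 other genes that passed the filter on low counts correlated with Mki67 by the same test, and so did 0.0% of all 14683 genes. At an unadjusted permutation p under 0.05, 10 of the 30 passed, all positive, against 6.65% of all genes. By Spearman's rho 0 passed after adjustment. The median r was 0.41, against 0.00 over all genes, and 0.27 without the 2 farthest libraries. Highest was Ccna2, the cyclin A2 gene, with r = 0.84 (rho 0.76, permutation adjusted p = 0.348), within GFP 0.90, within F11 0.79, and 0.71 without the 2 farthest libraries. Weakest by size of r were Ube2c, which encodes the ubiquitin-conjugating enzyme of the anaphase-promoting complex, and Cdc20, its activator. For Ube2c r was -0.003 and for Cdc20 -0.01. For Cenpf r was -0.53 (rho -0.51, permutation adjusted p = 0.750), within GFP -0.82, within F11 -0.08, and -0.24 without the 2 farthest libraries.

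Over all pairs of the 35 genes in fat, r had a median of 0.94, was positive in 595 of 595 pairs and was over 0.8 in 540. The lowest was 0.18, between Tyms and Ccne1, the cyclin E1 gene. Over the 10 adipose libraries without much RNA of another organ, the median was 0.92, and 519 pairs were over 0.8. Among 31 genes in heart the median was 0.22, 336 of 465 pairs were positive and 2 were over 0.8. The lowest was -0.81, between Rrm2, a subunit of ribonucleotide reductase, and Nusap1, a spindle microtubule protein. Pairs within 1 role had a median r of 0.94 in fat and 0.22 in heart, and pairs across roles had the same medians to that precision. These r values share libraries and are given as a description. Cdk1 had 213 reads summed over the 13 heart libraries against 2692 over the 16 adipose libraries, while Cenpf had 8587 against 1956. The part of counting error in the lower r was not tested.

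**Figure D2:**
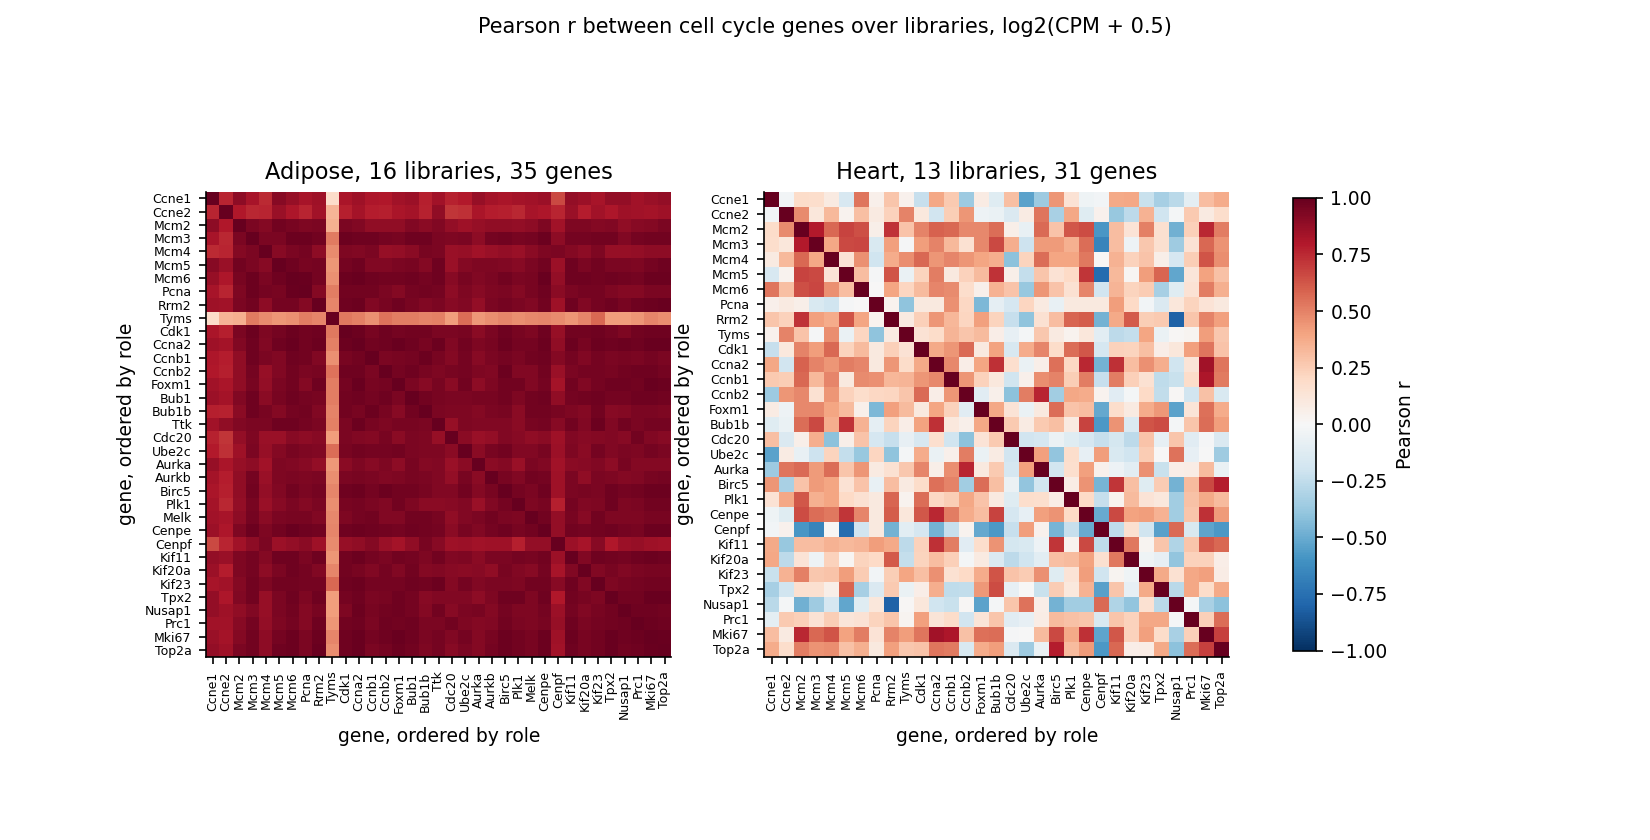
Pearson r of log2(CPM + 0.5) between every pair of cell cycle genes over the 16 adipose libraries (left, 35 genes) and the 13 heart libraries (right, the 31 genes above the filter), on a colour scale from -1 to 1. The adipose panel is positive throughout and palest for Tyms, while the heart panel mixes positive and negative pairs.

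Outside the list, the 10 genes most like Mki67 in fat were Kif2c (r = 0.995), Fignl1, Cdca8, Brca1, Hmmr, Knl1, Aspm, Knstrn, Ckap2l and Uhrf1 (r = 0.98), over 16 libraries. Kif2c encodes a kinesin that takes microtubules apart at centromeres. In heart, over 13 libraries, the 10 were Aldh18a1 (r = 0.85), Arf2, Pdia3, Agbl5, Mgmt, Clec10a, Tceal1, Ddx60, Slc16a6 and Ckap4 (r = 0.78), and none of these passed the permutation test after adjustment (lowest adjusted p = 0.307).

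Gpnmb in fat was spread more widely than any of the 35 genes, from 26.4 CPM in L140 to 1799 in L133 with GFP and from 121.8 in L142 to 2458 in L148 with F11. In heart it did not exceed 3.17 CPM. With the vector kept in the fit, 34 of the 35 genes rose with Gpnmb over the adipose libraries (edgeR adjusted p under 0.05, slope on log2(Gpnmb CPM + 1)), against 21.3% of all 15228 genes. The median slope was 0.37 log2 units per log2 unit of Gpnmb over the 35 genes and -0.01 over all genes. The 1 exception was Tyms, whose slope was 0.02 ± 0.02 (SE, edgeR adjusted p = 0.382). Its Pearson r with Gpnmb was 0.43 (rho 0.57), and 0.73 over the 10 libraries without much RNA of another organ.

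By role, among replication genes 9 of 10 passed with a median of 0.27, and these slopes ran down to 0.09 ± 0.03 (SE) for Ccne2, 0.14 ± 0.03 for the helicase gene Mcm4 and 0.19 ± 0.05 for Ccne1. Pcna was at 0.27 ± 0.03 (edgeR adjusted p = 3.67e-06) and Mcm6 at 0.32 ± 0.03 (1.41e-06). All 5 genes of the mitotic cyclin group passed with a median of 0.43, Cdk1 and Ccnb1 at 0.47 each. All 5 checkpoint genes passed (median 0.35), and Bub1 had the steepest slope of the list, 0.54 ± 0.06. All 5 genes of the mitotic kinase group, which holds Birc5, passed (median 0.39). So did all 8 spindle and kinetochore genes (0.38) and both genes of chromosome structure (0.45).

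The lowest p-values belonged to Birc5, Cenpe and Ccnb1. Birc5 encodes survivin, a subunit of the chromosomal passenger complex, and was at 1.19, 5.90 and 9.86 CPM with GFP and 2.45, 4.42 and 11.7 CPM with F11. Its slope on Gpnmb was 0.46 ± 0.04 (SE, edgeR adjusted p = 6.22e-07). Cenpe, a kinesin that moves chromosomes to the spindle equator, was at 1.33, 6.53 and 11.1 CPM with GFP and 2.80, 3.89 and 14.9 CPM with F11. Its slope was 0.51 ± 0.05 (edgeR adjusted p = 6.60e-07). For both genes L140 was lowest and L148 highest, as for Gpnmb. For Mki67 the slope was 0.46 ± 0.05 (edgeR adjusted p = 1.94e-06), and its Pearson r with Gpnmb was 0.93 (rho 0.90), within GFP 0.93, within F11 0.94, and 0.88 without L140 and L142, the 2 libraries farthest from the median of Gpnmb.

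**Figure D3:**
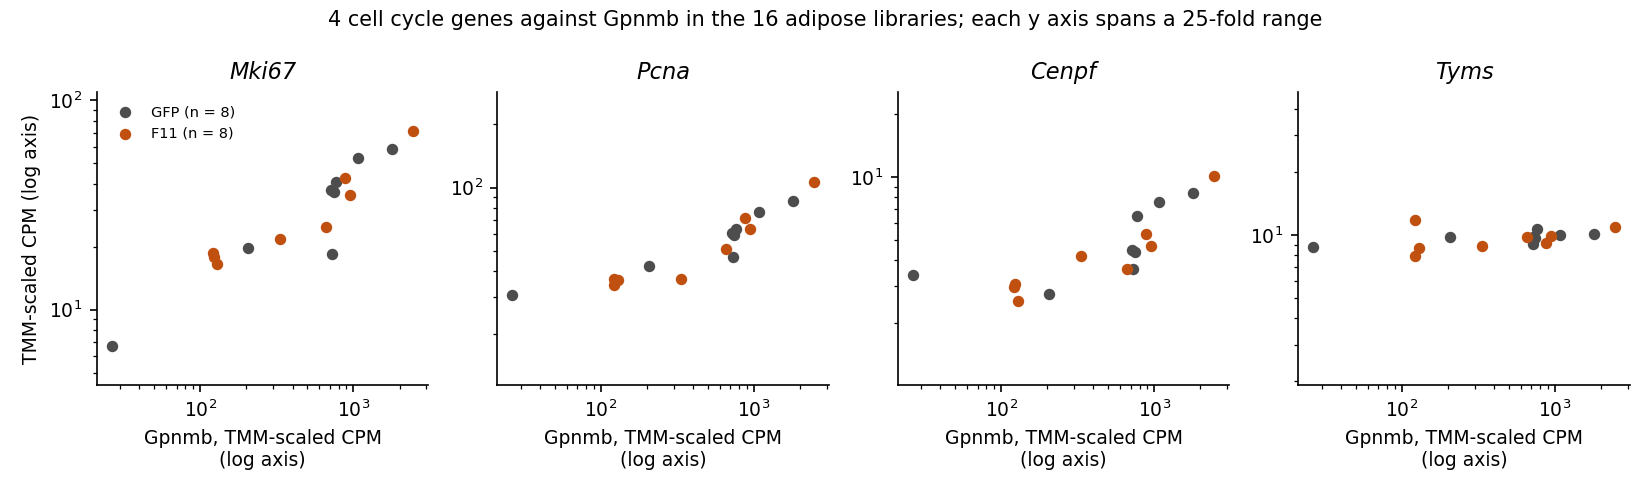
Mki67, Pcna, Cenpf and Tyms (y axes, CPM, log axes of equal fold range) against Gpnmb (x axes, CPM, log axis) in the 16 adipose libraries, grey for GFP and orange for F11. Mki67, Pcna and Cenpf climb with Gpnmb in both vector groups, and Tyms stays between 7.89 and 11.7 CPM.

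Leaving out 1 library at a time, 32 to 34 genes passed. With all 16 libraries 34 had passed, against 21.3% of all 15228 genes. With GFP alone 31 passed, while 2285 of all 13924 genes rose with Gpnmb. With F11 alone 32 passed, against 1694 of all 14059 genes. Without the 6 libraries rich in transcripts of another organ 33 passed, against 2757 of all 15164 genes, with a median slope of 0.53. Without L140 and L142 33 passed, against 3524 of all 15250 genes, with a median slope of 0.40.

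**Figure D4:**
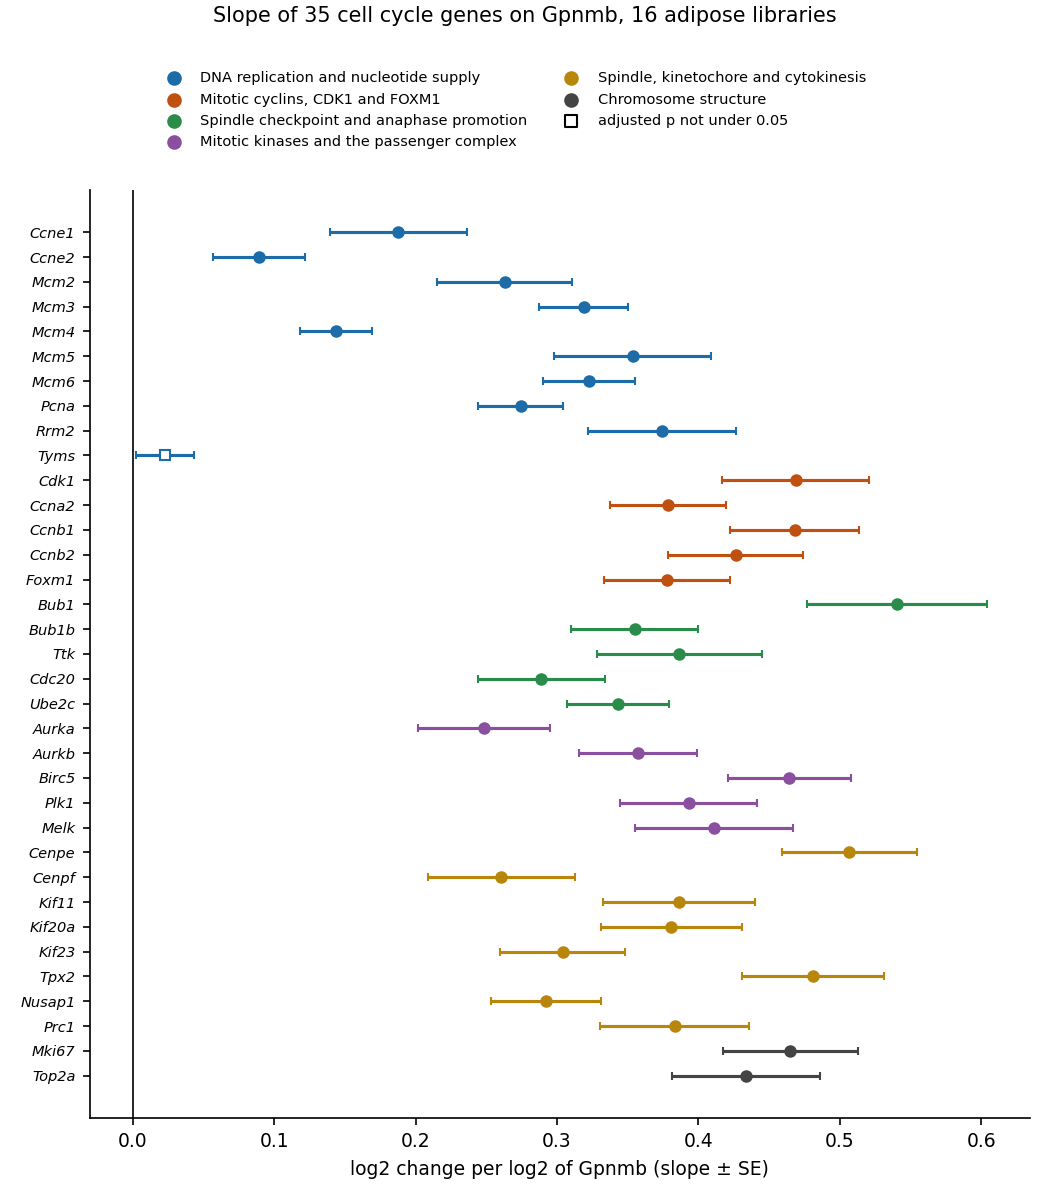
Slope of each of the 35 genes on log2 Gpnmb over the 16 adipose libraries with its SE (x axis), genes on the y axis coloured by role, open square where the adjusted p was not under 0.05. All slopes but that of Tyms (0.02) stand clear of 0, Ccne2 lowest at 0.09 and Bub1 highest at 0.54.

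Gpnmb itself varied with macrophage genes in general. Its r with the mean log2 CPM of 12 general macrophage markers was 0.96 (rho 0.97, 16 libraries, permutation p = 1e-05, the smallest these permutations can give), and 0.985 without the 2 farthest libraries. On those markers in place of Gpnmb, 34 of the 35 genes had a positive slope that passed (edgeR), against 22.0% of all 15217 genes (25.1% had a negative one), with a median of 1.04 against -0.04 over all genes. Without the 6 libraries rich in transcripts of another organ 33 passed, against 2725 of all 15153 genes with a positive slope. With both terms in 1 fit, 0 of the 35 genes passed for Gpnmb (lowest edgeR adjusted p = 0.0660) and the median slope was 0.08, with 23 of 35 positive. In that fit 189 of all genes rose and 306 fell with Gpnmb. For the macrophage markers in the same fit 4 of the 35 genes passed, with a median slope of 0.81, while of all 15216 genes 757 rose and 432 fell with them. Because the 2 terms correlated at r = 0.96, their slopes in this fit cannot be well told apart. The fit was not run without the 6 libraries. From which cells the RNA of the 35 genes came was not tested.

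Other marker lists moved with Mki67 in fat as well. Of 19 lists compared over the 16 libraries, 6 correlated positively and 3 negatively (permutation adjusted p under 0.05 over the 19). Fibroblast and progenitor genes had r = 0.95 (rho 0.95, permutation adjusted p = 9.50e-05), within GFP 0.94, within F11 0.98, and 0.97 without the 2 farthest libraries. All 7 of these genes were detected, and they summed to 1549 to 5408 CPM with GFP and 1822 to 5281 CPM with F11. General macrophage genes had r = 0.93 (rho 0.95), all 12 were detected, and they summed to 766.8 to 3341 CPM with GFP and 897.9 to 3498 CPM with F11. The list of 12 lipid-associated macrophage genes, which holds Gpnmb, had r = 0.87 (rho 0.90). Cd36, which adipocytes also express, was its most abundant gene. Granulocyte and mast cell genes had r = 0.86 (rho 0.85), and adipocyte genes had r = -0.57 (rho -0.63, permutation adjusted p = 0.0437), which was -0.46 without the 2 farthest libraries and -0.91 over the 10 libraries without much RNA of another organ. Over those 10 libraries r was 0.96 for fibroblast and 0.96 for general macrophage genes. Germ cell genes of the testis had r = 0.71 (rho 0.80) at summed levels of only 6.01 to 34.2 CPM, led by Sycp3. The other lists that passed were pancreas (r = 0.68), skeletal muscle (-0.73) and Schwann cells (-0.69), for which r over the 10 libraries was 0.36, -0.35 and -0.17. Endothelial genes did not pass by Pearson r (-0.48, permutation adjusted p = 0.105) but did by rho (-0.58, 0.0426), and had r = -0.79 over the 10 libraries. Mural cell genes did not pass by either (r = -0.41, rho -0.51), and had r = -0.74 over the 10 libraries. The part of each cell type in the levels of the 35 genes was not tested.

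The vector made no difference that passed in fat. By edgeR 0 of the 35 genes were called, as were 0.0% of all 15229 genes. At an unadjusted p under 0.05, 0 of the 35 and 638 of all genes passed, and DESeq2 and limma voom each called 0 of the 35. All 35 log2 changes, F11 over GFP, were below 0, with a median of -0.12 against -0.0007 over all genes. The 35 are not independent, as their median pairwise r of 0.94 shows. The median was -0.36 without L148 and 0.02 without L133, when 22 of the 35 changes were positive. Without the 6 libraries rich in transcripts of another organ it was -0.16, and 0 genes passed. By limma voom, which here gave each library a quality weight and used unrounded counts, the median was -0.40.

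Mki67 was at 6.72, 36.8 and 58.7 CPM with GFP and at 16.5, 23.3 and 71.3 CPM with F11. Of the 8 F11 libraries 2 lay above the GFP median, and the ranges overlapped. Its log2 change was -0.12 ± 0.39 (SE, 95% interval -0.95 to 0.71, edgeR adjusted p = 0.9996). Bub1 was at 0.642, 4.05 and 7.23 CPM with GFP and at 1.01, 1.96 and 8.58 CPM with F11, a log2 change of -0.35 ± 0.47 (95% interval -1.34 to 0.64). Aurkb, the kinase of the chromosomal passenger complex, was at 1.53, 5.26 and 7.505 CPM with GFP and at 2.30, 3.32 and 7.45 CPM with F11, a log2 change of -0.30 ± 0.31. For Bub1 and Aurkb alike 2 of 8 F11 libraries lay above the GFP median, and both genes overlapped between the vectors. Ccne1 was at 2.12, 4.48 and 6.47 CPM with GFP and at 2.30, 3.84 and 5.28 CPM with F11, a log2 change of -0.17 ± 0.21 with overlapping ranges.

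The 95% intervals were wide. That of Ccnb1 ran from -1.04 to 0.68, and that of Pcna from -0.62 to 0.44. Tyms, with the smallest spread, had -0.01 ± 0.07 (SE) and an interval from -0.16 to 0.14. With Gpnmb as a covariate the median vector change of the 35 genes was -0.01, and 15 were positive. Gpnmb itself changed by -0.10 ± 0.71 (SE, edgeR adjusted p = 0.9996), with the groups overlapping.

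In heart 31 of the 35 genes passed the filter on low counts. By edgeR 0 of the 31 were called between the vectors, against 0.872% of all 14684 genes (76 higher and 52 lower with F11). At an unadjusted p under 0.05, 1 of the 31 and 1831 of all genes passed, and DESeq2 and limma voom each called 0 of the 31. The median log2 change was -0.004 over the 31 genes, with 15 positive, and -0.006 over all genes. Mcm6 was at 6.42, 7.83 and 8.50 CPM with GFP and at 6.93, 8.63 and 10.8 CPM with F11, and 6 of 7 F11 libraries lay above the GFP median in overlapping ranges. Its log2 change was 0.24 ± 0.10 (SE, unadjusted p = 0.0291 and adjusted p = 0.332 by edgeR).

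Ube2c was at 1.46, 1.62 and 3.23 CPM with GFP, L8 standing far above the rest, and at 0.924, 1.33 and 2.11 CPM with F11. Its log2 change was -0.42 ± 0.22 (SE, edgeR adjusted p = 0.435), and -0.19 at the weakest with 1 library left out. Cenpe was at 0.618, 0.918 and 1.74 CPM with GFP and at 1.027, 1.13 and 1.56 CPM with F11. For Cenpe all 7 libraries with F11 exceeded the median of those with GFP, but L9 with GFP exceeded them all, and its log2 change was 0.27 ± 0.21 (edgeR adjusted p = 0.638). For Mki67, at 5.90, 6.76 and 11.01 CPM with GFP and at 5.44, 6.87 and 10.3 CPM with F11, the change was -0.03 ± 0.16.

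Bub1, Ttk, Aurkb and Melk were below the filter in heart, none of them above 0.693 CPM in any heart library. With no filter Bub1 was at 0.0973 to 0.386 CPM with GFP and 0.198 to 0.598 CPM with F11, 26 against 56 reads summed, and its log2 change was 0.85 ± 0.39 (SE, unadjusted p = 0.0363 and adjusted p = 0.491 by edgeR over 25603 genes). The ranges overlapped. For Ttk, the kinase MPS1 of the spindle checkpoint, the change was 0.13 ± 0.38, for Aurkb -0.05 ± 0.30 and for Melk -0.12 ± 0.52.

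**Figure D5:**
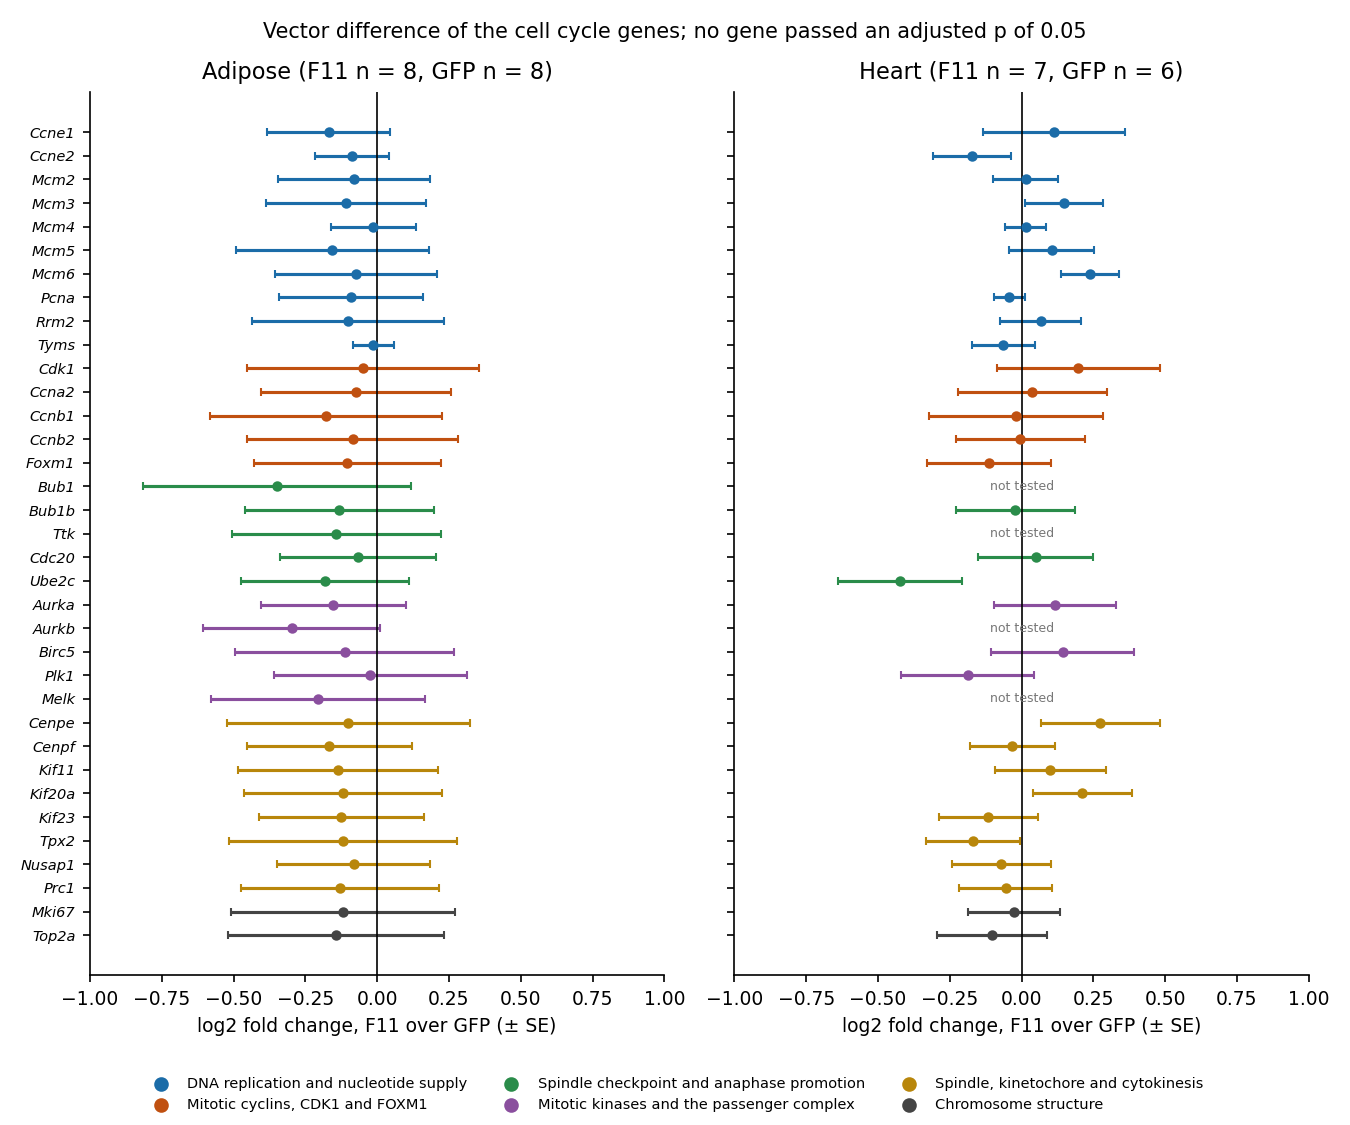
Log2 fold change of F11 over GFP with its SE (x axes) for each gene (y axis, coloured by role) in 16 adipose libraries (left) and 13 heart libraries (right), where 4 genes below the filter are marked as not tested. All adipose estimates lie left of 0 with wide errors, from -0.35 for Bub1 to -0.01 for Mcm4, and the heart estimates lie on both sides, from -0.42 for Ube2c to 0.27 for Cenpe.

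The vector's effect in fat minus its effect in heart, tested as an interaction over all 29 libraries, passed for 0 of the 35 genes (edgeR, against 0.0242% of all 16526 genes). At an unadjusted p under 0.05 0 of the 35 passed, and DESeq2 called 0. The median was -0.12, against 0.001 over all genes, and it was -0.39 without L148 and -0.0037 without L133. Bub1 had the lowest p, with -1.21 ± 0.68 (SE, edgeR adjusted p = 0.742), followed by Mcm6 with -0.32 ± 0.35 and Ccne1 with -0.29 ± 0.35. In heart Ccne1 was at 0.348, 0.833 and 0.973 CPM with GFP and at 0.359, 0.920 and 1.027 CPM with F11.

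Among 76 further cell cycle genes, 75 were tested against Gpnmb in fat, where 51 rose and 5 fell (edgeR, adjusted p under 0.05), and the shares of all genes were 21.3% and 22.0%. Of 29 mitosis genes 27 rose, among them Cdca8 (slope 0.45 ± 0.05, SE), a subunit of the passenger complex, the GTPase-activating protein gene Racgap1 (0.33 ± 0.03) and Kif2c (0.52 ± 0.05). Of 17 replication genes 11 rose, among them the licensing factor Cdt1 (0.41 ± 0.04), the methylation reader Uhrf1 (0.41 ± 0.05) and the flap endonuclease Fen1 (0.30 ± 0.04). Of 11 pocket protein and E2F genes 6 rose, with E2f8 at 0.39 ± 0.05, and of 6 MuvB and MYB genes 3 rose, with Mybl2 at 0.32 ± 0.04. The 5 that fell, named here whatever the rule for naming, were Pttg1 (-0.16), which encodes securin, the CDK inhibitors Cdkn2c (-0.15) and Cdkn1b (-0.05), and the MuvB genes Lin52 (-0.11) and Rbbp4 (-0.05). Of 6 G1 cyclin and kinase genes 3 rose, with Cdk6 at 0.24 ± 0.05. Of 6 CDK inhibitor genes tested 1 rose, Cdkn2b at 0.13 ± 0.04, beside the 2 that fell.

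Between the vectors 0 of 75 of these genes passed in fat by edgeR, where 1 had an unadjusted p under 0.05, Gins2 of the replicative helicase (log2 change 0.19 ± 0.07, SE). In heart 0 of 67 passed, and 4 had an unadjusted p under 0.05, as had 1831 of all 14684 genes, a larger share. The 4 were Cenpa, the centromeric histone (-0.30 ± 0.07, adjusted p = 0.0614), Uhrf1 (0.73 ± 0.24, 0.171), Lin52 (0.19 ± 0.07, 0.266) and Cdc6, a licensing factor (0.60 ± 0.27, 0.365), by edgeR. Between tissues with GFP, 57 of 74 were higher in fat and 10 lower, against 43.6% and 37.7% of all genes. The lower ones included Cenpa (-2.02 ± 0.19, SE), the dUTPase gene Dut (-1.63 ± 0.08) and the repressor gene E2f6 (-1.52 ± 0.06). Of the 28 mitosis genes tested, the group that holds Cenpa, 26 were higher in fat and 2 lower.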

How the data were processed

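Bulk RNA of heart and white adipose tissue came from a miRNeasy kit, libraries from a Nugen Universal Plus mRNA kit and reads from a NovaSeq, per the labels' protocols. The authors deposited estimated counts per gene from kallisto 0.46 on GRCm38.p6, per the submitters' processing notes. Not given in the sources used here are the annotation release, how transcripts were summed to genes, and strand, and 30.8% of the deposited values were not whole. Of 30 labelled libraries 29 had a column, and the heart GFP library L10 was not analysed here. Symbols came from GENCODE vM21, which named 35856 of 36558 IDs (76 shared a symbol). The Kif11 row equals that of an unnamed ID, so its counts may be split.

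The 35 genes, the related and marker lists and the tests were chosen with earlier results of these data known. Estimated counts were rounded and tested in R 4.3.3 with edgeR 4.0.16 (filterByExpr, TMM scaling, glmQLFit and glmQLFTest), and p-values were adjusted by Benjamini-Hochberg over all genes tested with a threshold of 0.05. Each fit held only the groups compared, except that the interaction held all 29 libraries. CPM is TMM-scaled. Relations to Mki67 used Pearson r of log2(CPM + 0.5) with 100000 two-sided permutations. No 2 libraries of a group were so alike as to be counted as 1 (chi-square per degree of freedom at least 3.51). DESeq2 1.42.0 and limma 3.58.1 (voom with a quality weight for each library, on unrounded counts) were tried. So were other scalings, filters, thresholds and pseudocounts, and leaving out each library. Fits and correlations were tested on simulated data. The scripts also used Python 3.11.15, numpy 2.4.6, scipy 1.17.1 and pandas 2.3.3.

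The genes with full values are Mki67, Top2a, Cdk1, Ccnb1, Pcna and Mcm6, the 3 of lowest p for each comparison, the 2 least related to Mki67 in each tissue, the 10 other genes most like Mki67, and up to 3 of lowest p in each related list. Other names were added after their values were seen.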

Additional observations from a re-analysis of the deposited data

Results flagged for a closer look

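In 16 of the 140 combinations of gene and group, 1 library lay far from the others by Dixon's criterion. In normally distributed values chance meets it in about 1 of 20 groups. It was applied to CPM without a log, for which that rate may not hold. The genes vary together, so the 16 are not separate events. Of the 16, 10 were L148 in adipose tissue with F11, which had the highest level of each. Ccna2 was at 23.6 CPM there against 6.67 to 14.2 in the other 7 libraries, and Ccnb1 was at 13.3 CPM against 2.45 to 6.37. Ccnb2 was at 8.45 CPM (others 1.51 to 4.70), and Foxm1, the transcription factor of mitotic genes, at 12.3 CPM (others 4.02 to 7.16). Bub1 was at 8.58 CPM (others 1.01 to 4.39), Ttk at 3.85 CPM (others 0.919 to 2.02) and Aurka, the centrosomal kinase, at 6.67 CPM (others 2.07 to 4.17). Cenpf was at 10.1 CPM (others 2.56 to 5.36), Kif23 at 11.8 CPM (others 3.73 to 7.29) and Nusap1 at 13.2 CPM (others 4.06 to 7.29). L148 also had the highest Gpnmb, 2458 CPM.

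The other 6 were in heart and involved 6 libraries. With F11, Tyms was at 6.16 CPM in L38 (others 4.06 to 4.65), Ube2c at 2.11 CPM in L40 (others 0.924 to 1.42), Melk at 0.587 CPM in L31 (others 0 to 0.220), and Kif23, alone in being low, at 1.23 CPM in L39 (others 1.74 to 2.13). With GFP, Ube2c was at 3.23 CPM in L8 (others 1.46 to 1.66) and Cenpe at 1.74 CPM in L9 (others 0.618 to 0.995).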

How the results depend on the processing

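With the general macrophage markers as a further term, 0 of the 35 genes passed for Gpnmb against 34 without them, and with Gpnmb as a further term 4 passed for the macrophage markers against 34 (757 rose and 432 fell of all 15216 genes). In those fits the Gpnmb slopes of Pcna (-0.092) and Mcm6 (-0.0055) changed sign. Gpnmb and the macrophage markers correlated at r = 0.96, so their slopes there cannot be well told apart. With Gpnmb in the fit the vector's log2 change in fat was 0.042 for Mki67, 0.019 for Top2a and 0.061 for Cdk1, all of the other sign. The cause was not tested. The other 53 recomputed counts of genes that passed, under other scalings, filters, tools, thresholds or subsets of libraries, stayed within 1.5 times their value.

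With 1 library left out, 12 of the 25 vector changes and interactions followed for single genes took both signs. In fat the vector's change ran from -0.41 to 0.033 for Mki67, -0.40 to 0.0063 for Top2a, -0.32 to 0.10 for Cdk1, -0.29 to 0.0089 for Pcna and -0.27 to 0.052 for Mcm6. In heart it ran from -0.13 to 0.11 for Mki67, -0.20 to 0.055 for Top2a and -0.20 to 0.17 for Ccnb1. The vector's effect in fat minus that in heart ran from -0.40 to 0.060 for Mki67, -0.32 to 0.11 for Top2a, -0.54 to 0.0285 for Ccnb1 and -0.27 to 0.052 for Pcna. Counts of genes that passed stayed at 0 for the vector and for Mki67 in heart. They ran from 32 to 34 for Gpnmb, 33 to 35 for the macrophage markers, 34 to 34 between tissues and 33 to 34 for Mki67 in fat. With no library left out, 21.3% of all genes rose with Gpnmb, 22.0% with the macrophage markers and 26.5% with Mki67 in fat. Between tissues 43.6% of all genes were higher and 37.7% lower in fat.

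Over all genes DESeq2 called more than edgeR between the vectors, 11 against 0 in fat, 223 higher and 150 lower against 76 and 52 in heart, and 49 and 140 against 2 and 2 for the interaction. In heart limma voom called 122 and 79, a threshold of 0.1 gave 307 in both directions together, and a fit over all libraries 13 and 17. No paired analysis was possible because the labels give the groups no shared replicate numbers. Depth limits the heart values, with 26 reads of Bub1 over 6 libraries with GFP, and the SE of 0.39 log2 units for Mki67 limits the vector comparison in fat.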
